A study of Mus musculus with 30 samples.

Results

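The 10 genes described here read or pass on the energy state of a cell, and were followed through the hippocampus of mice on 5 diets. They are 4 sirtuins (Sirt1, Sirt2, Sirt3 and Sirt5), 3 subunits of AMP-activated protein kinase or AMPK (Prkaa2, Prkab1 and Prkag1), the coactivator PGC-1alpha (Ppargc1a) and the transcription factors Foxo1 and Foxo3. Their rows were found by gene symbol, and the set was drawn up with earlier results of these data known. All 10 were among the 20227 symbols of the table, with 25 transcripts between them. RNA of the whole hippocampus was sequenced from 30 mice aged 15 months, with 3 males and 3 females on each diet, which the series calls biological replicates. The diets are labelled Chow, ChowCR, 5% P, 10% P and 15% P. The series title compares caloric restriction with diets low in protein and high in carbohydrate, and CR and P are read here in that sense. The labels give neither the make-up of a diet nor the strain.

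Sirtuins are enzymes that remove acyl groups from lysines and consume NAD+ as they do so, which ties them to the redox state of the cell. AMPK is a kinase of 3 subunits, of which alpha is catalytic, beta is the scaffold and gamma binds AMP, ADP and ATP. It is switched on when ATP falls and phosphorylates PGC-1alpha, which drives mitochondrial genes, and Foxo factors, which insulin signalling keeps out of the nucleus and which control stress and autophagy genes. SIRT1 deacetylates PGC-1alpha and Foxo proteins. Much of this control acts on the proteins, which RNA levels do not measure.

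The level of a transcript is given as FPKM, which divides its fragments by its length and by the size of the library, so genes can be set side by side. A library lists a value for some transcripts and leaves others empty, and an empty cell is not the same as 0. The sources used here do not say what decided this, and the depth is unknown. A gene's level is the sum of its listed transcripts. Each library listed between 19681 and 21853 transcripts, and between 4 and 9 of the 10 genes. Ttr, a gene of the choroid plexus, ran from 7.16 to 7513 FPKM between libraries. Its median was 1588 in Chow and 1655 in ChowCR, against 15.1 on 5% P, 83.8 on 10% P and 61.2 on 15% P. The ranges of all diets overlapped. Only Sirt2 and Prkab1 were fitted with the Ttr level as a covariate, and neither was called with or without it. With this covariate, the log2 difference of Prkab1 from ChowCR changed sign on 5% P and on 10% P, to 0.16 on each.

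A pair of junction sequences and a pair of intron starts show what the rows of the table are, since the form listed decides what a value means. All are from GENCODE M21 (GRCm38), read 5′ to 3′ on the gene's strand. The first pair is the junction before exon 7 of Ppargc1a (chr5:51490071-51490219, minus strand). Ppargc1a-201 carries 31 more bases there than Ppargc1a-203, and the capitals mark those up to and including the stop codon TAA.
Ppargc1a-201: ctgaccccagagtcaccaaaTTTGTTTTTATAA
Ppargc1a-203: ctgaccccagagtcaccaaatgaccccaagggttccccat
The stop leaves Ppargc1a-201 with a coding length of 810 bases against 2391 in Ppargc1a-203. GENCODE files it under nonsense-mediated decay, and an insert with a stop at this junction is also known to give the shortened protein NT-PGC-1alpha.

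The second pair shows the sirtuins that the table holds only as retained-intron transcripts. Lower case is the end of the exon shared with the coding transcript and capitals are intron. The last exon of Sirt1-204 runs past exon 4 of Sirt1-201 (chr10:63331725-63331764, minus strand), and that of Sirt2-206 past exon 7 of Sirt2-201 (chr7:28777228-28777267, plus strand).
Sirt1-204: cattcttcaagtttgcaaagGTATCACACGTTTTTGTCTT
Sirt2-206: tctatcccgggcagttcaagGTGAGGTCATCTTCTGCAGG
Both introns open with GT, the letters at the start of most introns. The values for Sirt1 and Sirt2 below are therefore those of transcripts annotated with intron sequence, and their coding transcripts are not analysed here.

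Of the 25 transcripts, 12 are protein coding, 10 are retained-intron forms and 3 are filed under nonsense-mediated decay. None of them was listed in all 30 libraries, and 22 were listed in at least 1. The transcript test, which needs a value in every library, therefore held 0 of them among its 4447 transcripts, of which 2 or 0.045% were called for ChowCR against Chow. Summed by gene, Sirt2 and Prkab1 had a value in all 30 libraries, 7 genes in 12 to 27, and Foxo3 in 0. Across the table, 6508 of the 19282 symbols listed at least once had a value in every library, or 33.8%. Listing rose with level: it was complete for 32.6% of symbols with a mean of 2 to 5 FPKM and for 81.8% of those at 10 or more. The 9 genes with a value had medians of 0.549 to 5.46 FPKM, levels at which gaps are common. Within the set, listing did not follow level alone. Sirt2 and Prkab1, with medians of 1.10 and 2.87 FPKM, were complete only as sums of 3 and 9 rows. Prkag1 and Foxo1, with 1 row each and medians of 5.46 and 5.08 FPKM, had values in 24 and 27 libraries.

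**Figure D1:**
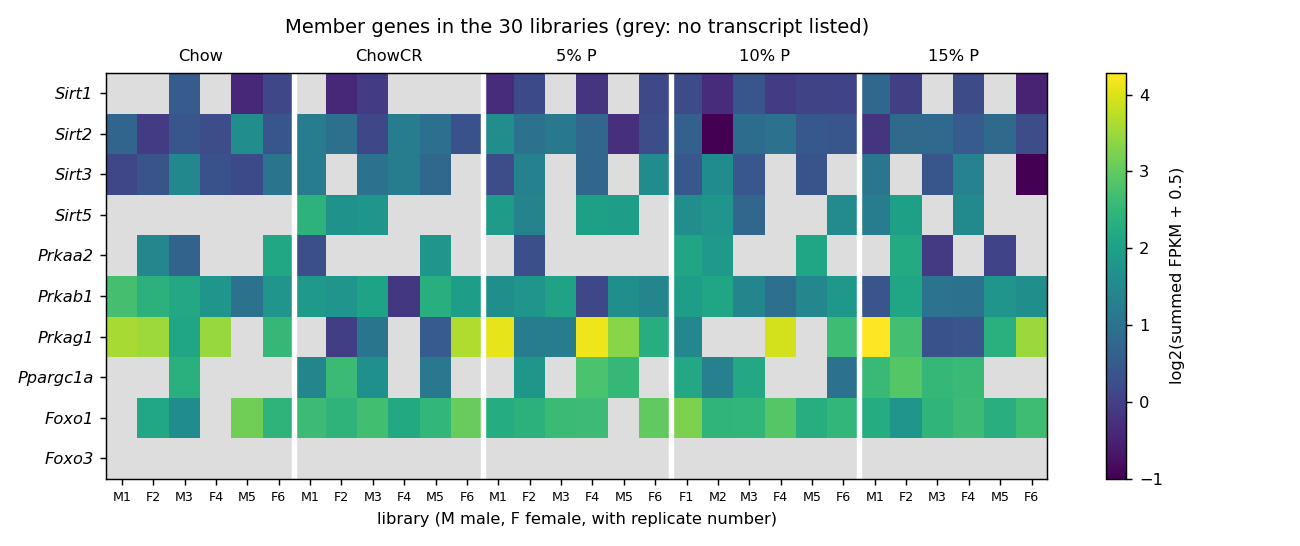
Colour gives the log2 of summed FPKM plus 0.5 for each gene (rows) in each of the 30 libraries (columns, M male and F female, grouped by diet), and grey marks a library that listed no transcript of the gene. Sirt2 and Prkab1 have a value in every column, Foxo3 in none, and Sirt5 in no Chow column.

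**Figure D2:**
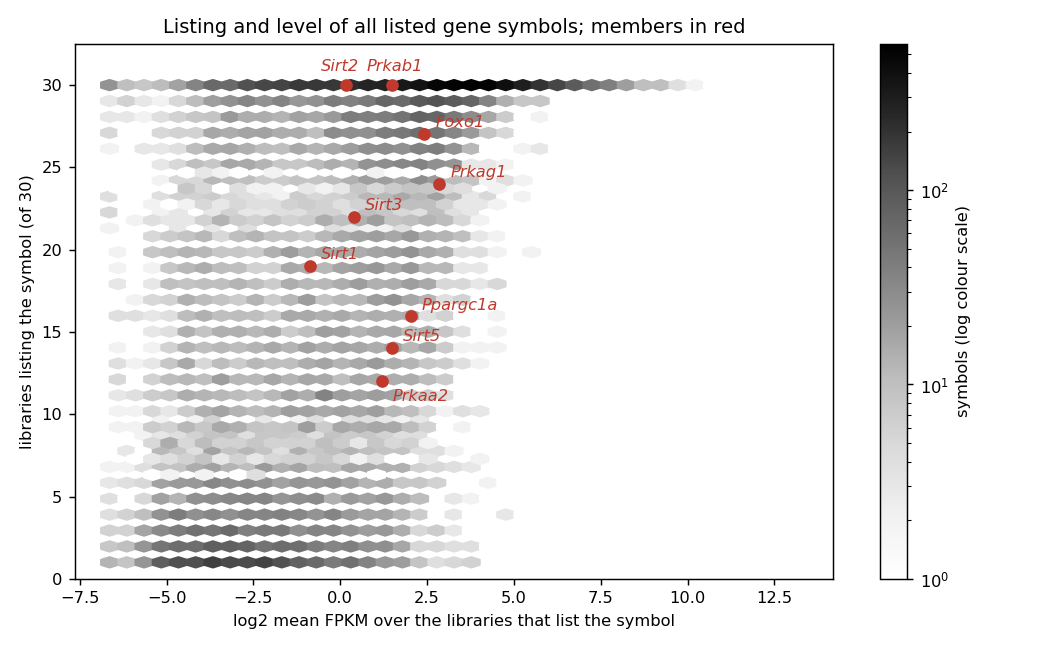
Each grey hexagon counts gene symbols by log2 mean FPKM over the libraries that list them (horizontal axis) and by the number of those libraries (vertical axis), with the 9 listed genes in red. Sirt2 and Prkab1 lie left of the bulk of symbols listed in 30 libraries, and Sirt5, Ppargc1a and Prkaa2 lie in the sparse middle, at 12 to 16 libraries.

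Sirt1, the nuclear deacetylase (chr10:63319005-63381704), was the lowest of the listed genes. It had a value in 19 libraries, from 0.211 to 1.2 FPKM with a median of 0.549. In 17 of these the value included Sirt1-204, whose intron sequence is given above. It was listed in 3 Chow libraries at 0.956, 0.256 and 0.593 FPKM, and in 2 ChowCR libraries at 0.267 and 0.460 FPKM. On 10% P it was listed in 6 of 6, with a lowest value of 0.301, a median of 0.557 and a highest of 0.836 FPKM. The listed values of these diets overlapped. The 6 of 6 against 3 of 6 in Chow gave p = 0.182 by a two-sided Fisher's exact test, adjusted p = 1 over 12774 symbols, of which 0 (0%) passed.

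Sirt2, a mainly cytosolic deacetylase that is abundant in oligodendrocytes (chr7:28766735-28788661), was tested in all 30 libraries. In Chow it ran from 0.439 to 2.51 FPKM with a median of 0.825, and in ChowCR from 0.606 to 1.86 with a median of 1.41. The P diets had medians of 1.33 (5% P), 0.957 (10% P) and 1.09 FPKM (15% P), and replicate 2 of 10% P was listed at 0. All 5 diets overlapped. Against Chow the log2 difference was 0.25 in ChowCR (SE 0.35) and between -0.15 and 0.19 on the P diets, with adjusted p from 0.93 to 1 by limma.

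Because SIRT2 protein is known from myelin, its RNA was set beside myelin genes. A score of the mean log2 level of myelin genes had diet medians from 5.41 in Chow to 5.90 in 10% P. Over the 30 libraries Sirt2 had r = -0.20 with this score (permutation p = 0.29) and Spearman's rho = -0.14 (permutation p = 0.44). Without the 2 libraries farthest from the median score r was -0.25 (permutation p = 0.20), and over residuals from diet and sex it was -0.18 (permutation p = 0.33). These were settings of 1 relation, and none passed. The Sirt2 rows are retained-intron forms, and the relation of the coding transcript to myelin genes is not tested by them.

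Sirt3, the main deacetylase of mitochondria (chr7:140863666-140882309), was listed in all 6 Chow libraries and in 4 of 6 on each other diet. In Chow it ran from 0.590 to 2.25 FPKM with a median of 0.780. The 4 listed ChowCR libraries had 1.82, 1.47, 1.85 and 1.23 FPKM, which lay inside the Chow range but above 4 of its 6 libraries. On 5% P the 4 listed values were 0.706, 1.99, 1.17 and 2.41, on 10% P 0.878, 2.46, 0.849 and 0.787, and on 15% P 1.59, 0.829, 2.05 and a listed 0. Each listed value is 1 of 2 coding forms in most libraries: Sirt3-205 was listed in 17, Sirt3-203 in 7, and both in 2. The listed values alone gave a log2 difference of 0.47 in ChowCR against Chow (SE 0.46, 22 libraries, adjusted p = 0.91, limma).

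Sirt5, a mitochondrial enzyme that removes succinyl and other acidic groups (chr13:43365496-43395203), was listed in no Chow library and in 14 of the 24 others. Its single transcript Sirt5-201 had values of 4.84, 2.73 and 2.93 FPKM in ChowCR, and of 3.23, 2.07, 3.50 and 3.36 on 5% P. On 10% P it had 2.53, 2.87, 1.17 and 2.42, and on 15% P 1.85, 3.52 and 2.34 FPKM. Where it was listed, then, it was at least at 1.17 FPKM, and its values overlapped between the diets. The 4 of 6 on 5% P and on 10% P against 0 of 6 in Chow each gave p = 0.0606 by Fisher's exact test (adjusted p = 1). With 6 against 6 the smallest p the test allows is 0.00216, so after adjustment over 12774 symbols it can detect little for any gene. All 4 other diets together against Chow, a comparison added after the values were seen, gave 14 of 24 against 0 of 6 (Fisher's exact p = 0.0185, adjusted p = 1). Of the 12774 symbols, 0.579% had a p as small in that comparison, and 0 (0%) passed. These symbols include many listed in very few or nearly all libraries, some of which cannot reach such a p. The share among symbols listed about as often as Sirt5 was not counted.

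Ppargc1a (chr5:51454250-51567726), the coactivator of mitochondrial biogenesis, was also rarely listed in Chow. It had a value in 1 Chow library, 4.59 FPKM in replicate 3, and in 15 of the 24 others. In ChowCR it had 2.19, 5.59, 2.62 and 1.68 FPKM, and on 5% P 2.95, 6.43 and 5.20. On 10% P it had 4.03, 1.97, 4.08 and 1.49, and on 15% P 5.49, 6.87, 5.20 and 5.46 FPKM. The 4 values of 15% P lay above the 4 of 10% P, a pair of diets picked after the values were seen. How often other symbols part in this way was not counted, and these diets were not tested against each other. Of the 4 values of 15% P, 3 lay inside the joint range of ChowCR and 5% P. The 15 of 24 against 1 of 6 gave p = 0.0725 by Fisher's exact test (adjusted p = 1), and 2.73% of symbols had a p as small. This share has the same limit as that given for Sirt5.

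The 2 forms of Ppargc1a were not listed alike. The full-length coding form Ppargc1a-203 was listed in 15 libraries and in 0 of 6 in Chow, and the single Chow value was all Ppargc1a-201, the form with the early stop shown above. Both were listed in 11 libraries, and Ppargc1a-203 was higher in 10 of these. There Ppargc1a-201 made up 14.7% to 54.8% of the summed level, with a median of 37.4%. The exception was replicate 6 of 10% P, with 0.816 FPKM of Ppargc1a-201 and 0.673 of Ppargc1a-203. No test between diets was made of this share, since neither form was listed in all libraries.

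Sirt5 and Ppargc1a were listed by nearly the same libraries. Both were listed in 13 and neither in 13, so they agreed in 26 of 30, with 1 library listing only Sirt5 and 3 only Ppargc1a. On each diet other than Chow both were listed in 3 or 4 libraries and neither in 2. This pair was picked after the values were seen, from the 21 pairs that 7 genes give. Of 2877 other symbols listed in 10 to 20 libraries, the median matched Sirt5 in 15 libraries, and Ppargc1a alone reached 26, which is 0.0348%. With Ppargc1a 2 symbols reached 26, or 0.0695%: Sirt5 and Aqp4, the water channel of astrocytes. Libraries share their depth and preparation across genes, so these counts are a description.

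Markers of astrocytes were set beside this pattern, since Aqp4 is on their list. Aqp4 was listed in 2 of 6 Chow libraries, 3 in ChowCR, 4 on 5% P, 5 on 10% P and 4 on 15% P. In the summed level of the 6 astrocyte markers an unlisted marker counted as 0, so the gaps in Aqp4 enter it. The sum ran from 261 to 438 FPKM in Chow and from 494 to 610 on 10% P, without overlap. In ChowCR it ran from 286 to 482, on 5% P from 294 to 488 and on 15% P from 292 to 617. How often other sets of symbols part in this way was not counted. Of the 6 markers, 4 (Gfap, Slc1a2, Slc1a3 and Gja1) were tested, none passed, and their median log2 difference of 10% P from Chow was 1.03 against 0.011 for all symbols. Much of the gap was in Slc1a3, a glutamate transporter, which had 25.97 ± 10.1 FPKM in Chow and 162 ± 14.3 on 10% P (SD, n = 6). Its log2 difference was 2.68 (adjusted p = 0.061, limma), against 1.76 for Gja1, 0.30 for Gfap and 0.17 for Slc1a2. None of the 6 markers was listed at exactly 0, but the lowest Aldh1l1 value was 0.000675 FPKM. Aqp4 had a value in only 18 of the 30 libraries and Aldh1l1 in 28. Aldh1l1 was not highest on 10% P, with 9.16 ± 5.20 FPKM there and 11.2 ± 1.37 in ChowCR (SD, n = 6). In bulk tissue fewer cells of a type and less RNA per cell cannot be told apart, and the part of astrocyte RNA in the listing of Sirt5 and Ppargc1a was not tested.

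**Figure D3:**
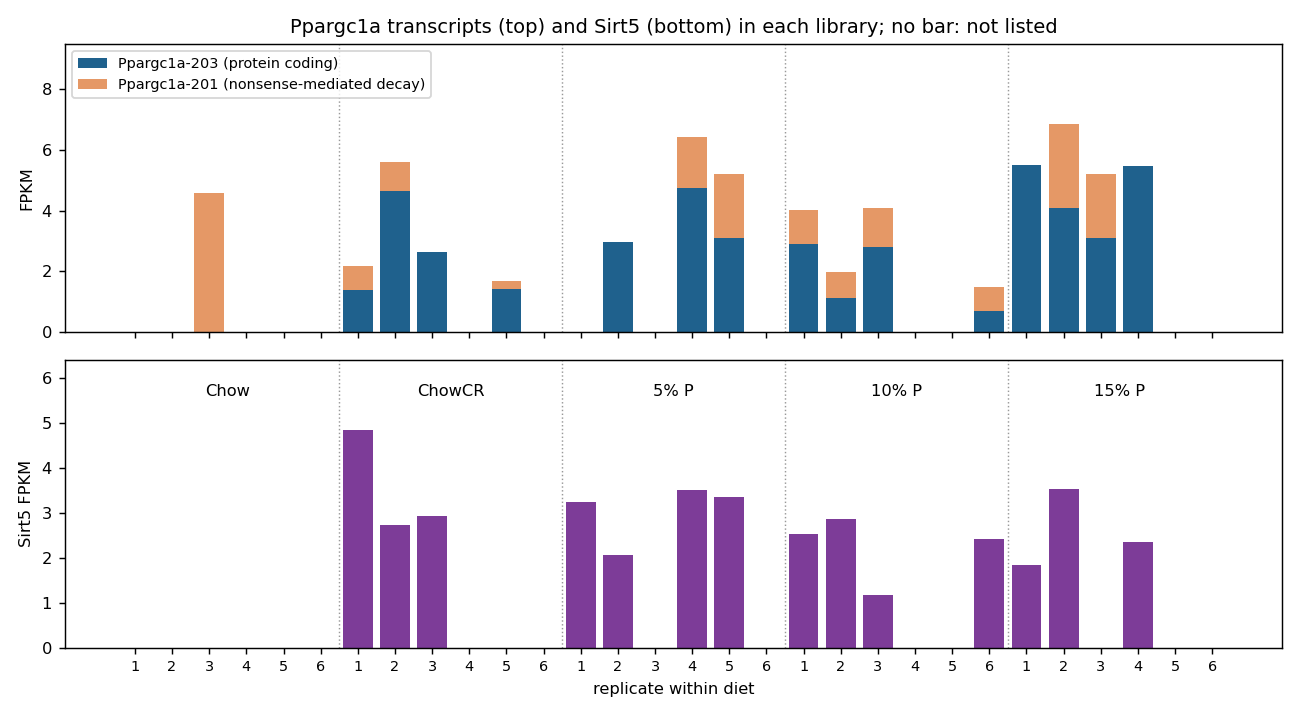
Bars give FPKM in each of the 30 libraries, grouped by diet and numbered by replicate: Ppargc1a above, split into Ppargc1a-203 (blue) and Ppargc1a-201 (orange), and Sirt5 below. Libraries with no bar listed no transcript, and 13 libraries have bars in both panels and 13 in neither.

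Among the AMPK subunits, Prkab1, the beta-1 scaffold (chr5:116013586-116024508), was tested in all 30 libraries. Chow libraries had 1.501 to 6.13 FPKM with a median of 3.50, and ChowCR libraries 0.409 to 4.54 with a median of 3.19. The medians were 2.58 on 5% P, 2.63 on 10% P and 2.05 on 15% P, with highest values of 3.63, 3.84 and 3.86 FPKM. The 2 highest of the 30 values were in Chow, yet all diets overlapped. The log2 difference from Chow was -0.35 in ChowCR (SE 0.38), -0.54 on 5% P, -0.36 on 10% P and -0.66 on 15% P. All 4 were below 0 and share the same Chow libraries, and their adjusted p was 0.90 to 0.93 by limma. Without ChowCR replicate 4, the lowest library, the difference of ChowCR from Chow was -0.0013.

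Prkab1 was also the gene with the most rows, 2 coding, 2 under nonsense-mediated decay and 5 with a retained intron. The coding forms Prkab1-201 and Prkab1-202 were listed in 20 and 14 libraries and together in 10. In those 10 libraries Prkab1-201 made up between 3.35% and 89.6% of the pair, with a median of 51.0%. Neither was listed in 6 libraries, where the sum held only retained-intron forms or those under nonsense-mediated decay. Which form carried the level thus differed from library to library, and the tested sum mixes coding and other forms.

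Prkaa2, the catalytic alpha-2 subunit (chr4:105029874-105109890), was the least often listed of the 9, with 12 libraries. Its single transcript had 2.22, 1.11 and 4.01 FPKM in Chow and 0.725 and 2.91 in ChowCR. It had 0.717 FPKM in the 1 library of 5% P, 3.89, 3.11 and 3.81 on 10% P, and 4.22, 0.434 and 0.538 on 15% P. The 3 values of 10% P stood close together, and the ranges of Chow and 15% P enclosed them. Listing differed from Chow by at most 2 libraries (smallest Fisher's exact p = 0.545, adjusted p = 1).

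Prkag1, the nucleotide-binding gamma-1 subunit (chr15:98812797-98831521), reached the highest level of the set and varied most. Its single transcript Prkag1-201 was listed in 24 libraries from 0.491 to 18.96 FPKM. Chow libraries had 11.6, 10.8, 3.77, 10.6 and 5.21 FPKM. ChowCR libraries had 0.491, 1.58, 0.945 and 11.99 FPKM, of which 3 lay below every Chow value and 1 above. On 5% P the lowest, median and highest were 1.82, 7.04 and 17.2, on 15% P 0.765, 5.29 and 18.96, and the 3 libraries of 10% P had 2.25, 14.7 and 5.71 FPKM. The P diets thus spanned most of the range seen in ChowCR and Chow. ChowCR against Chow gave a log2 difference of -1.72 (SE 0.88, adjusted p = 0.78, limma on listed values). It was -2.56 without ChowCR replicate 6 and -1.21 without ChowCR replicate 2. Against ChowCR the P diets were 0.95 to 1.42 higher on the log2 scale, with adjusted p from 0.85 to 0.95.

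Foxo1, a transcription factor held back by insulin signalling (chr3:52268336-52353221), was listed in 27 libraries. The 4 Chow values were 3.95, 2.45, 8.27 and 4.93 FPKM. In ChowCR, 10% P and 15% P it was listed in 6 of 6, with medians of 5.42, 5.13 and 4.73 and ranges of 4.12 to 7.83, 4.40 to 8.89 and 2.92 to 5.72 FPKM. On 5% P it had 4.33, 4.74, 5.55, 5.63 and 7.499 FPKM. Chow held both the lowest value of the listed Foxo1 libraries and the second highest, so the diets overlapped. The log2 difference from Chow was 0.26 in ChowCR (SE 0.25), 0.24 on 5% P, 0.32 on 10% P and 0.02 on 15% P, with adjusted p from 0.87 to 1 (limma on listed values).

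Foxo3 (chr10:42181841-42276755), the other Foxo factor of the set, had 2 coding transcripts in the table, Foxo3-203 and Foxo3-204, and no library listed either. GENCODE M21 annotates 5 transcripts of the gene. No row named by location overlapped it, so its level is not known from these values. The Foxo factors outside the set, Foxo4 and Foxo6, were listed in all 30 libraries with means of 3.97 and 5.68 FPKM.

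**Figure D4:**
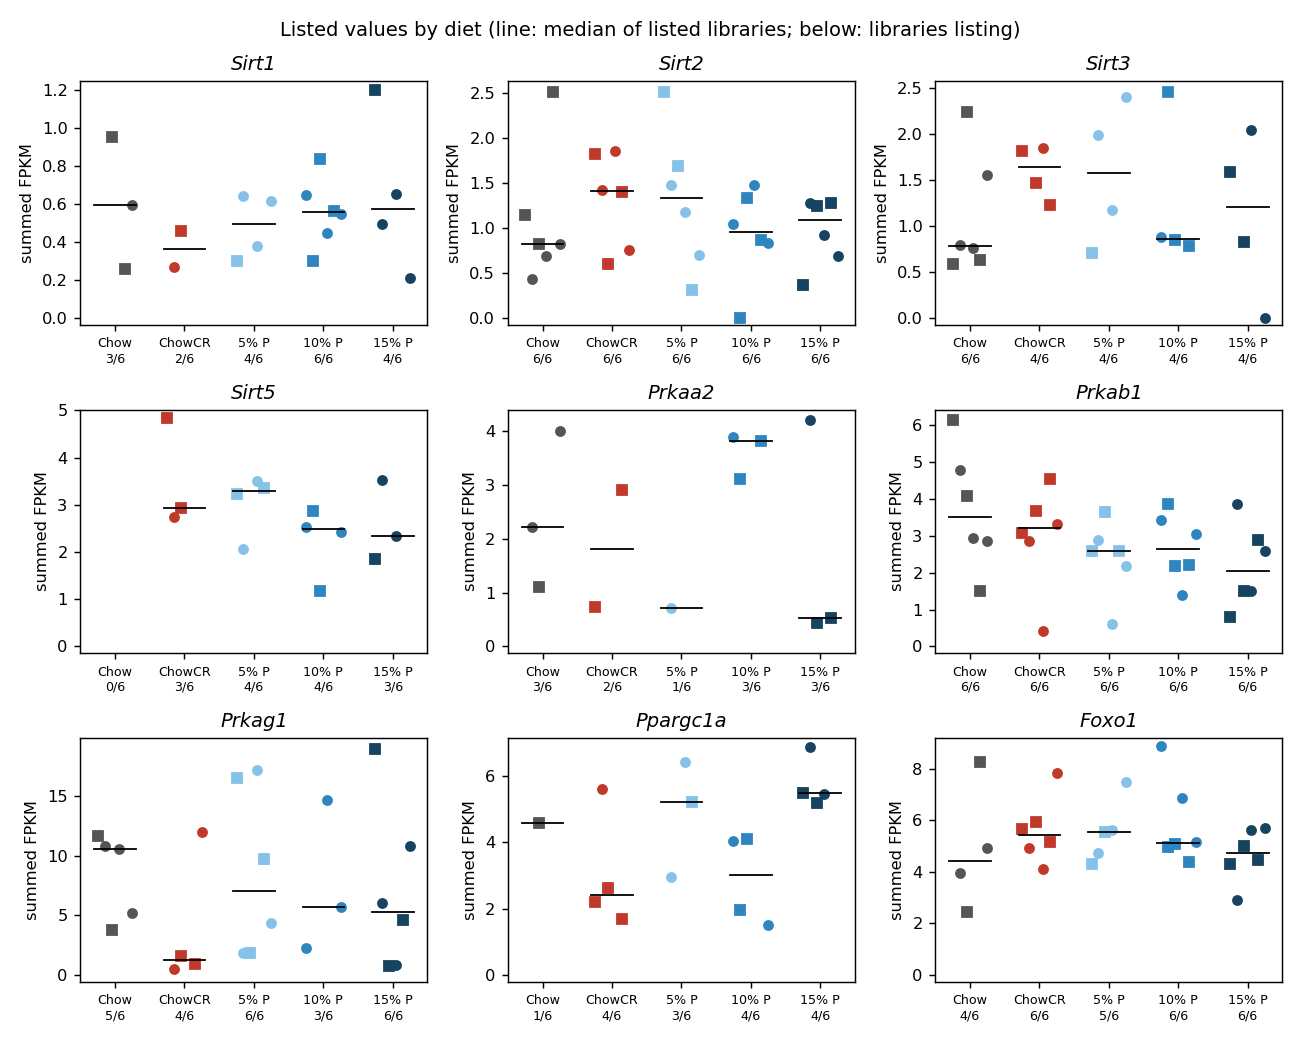
Each point is a library's summed FPKM (square male, circle female) for 9 genes by diet, with a line at the median of the listed libraries and the number of 6 libraries listing the gene under each diet. The diets overlap for Sirt2, Prkab1 and Foxo1, and 3 of 4 ChowCR points of Prkag1 lie below all Chow points.

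Over all comparisons, none of the genes passed the threshold of adjusted p under 0.05. For ChowCR against Chow, Sirt2 and Prkab1 were 2 of 4848 symbols tested in full, of which 3 or 0.0619% were called. The other 7 comparisons, each P diet against Chow and against ChowCR and the trend over the P diets, had 0 called (0%). With listed values alone, 5 of the genes were among 8001 symbols, of which 4 or 0.05% were called for ChowCR against Chow and 1 or 0.0125% for 5% P against ChowCR. None of these was one of the 10 genes, and none of the 40 tests on the 5 genes had an unadjusted p under 0.05, a level that 4.40% to 6.64% of all symbols reached in a comparison. These shares are so low that a lack of calls among the genes says nothing particular about them.

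**Figure D5:**
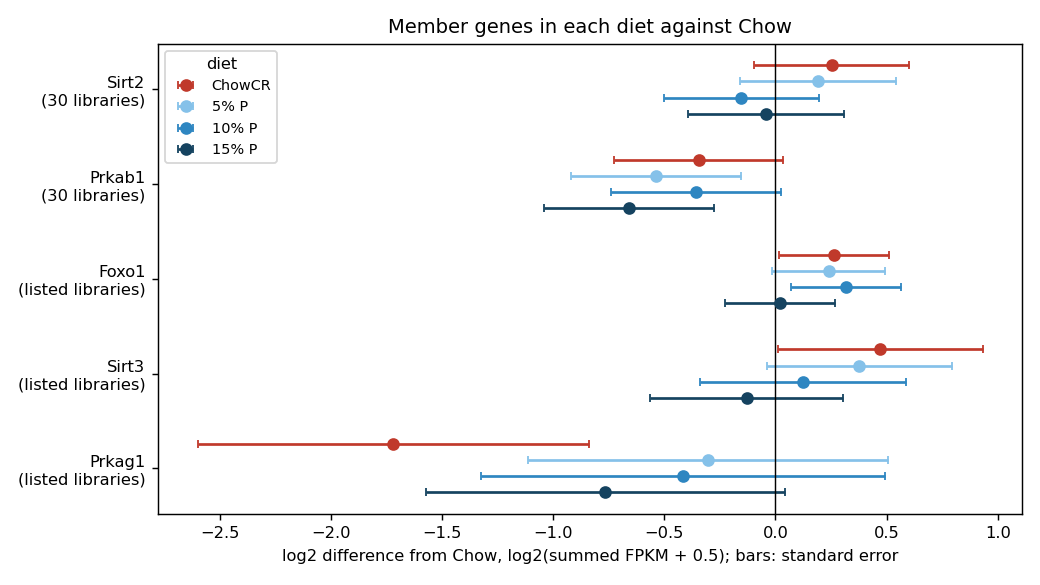
Points give the log2 difference of each diet from Chow, on log2(summed FPKM + 0.5), and bars the standard error, for Sirt2 and Prkab1 in 30 libraries and for Foxo1, Sirt3 and Prkag1 in the libraries that listed them. The widest bars belong to Prkag1, whose ChowCR point lies at -1.72, and the 4 points of Prkab1 all lie below 0.

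Sex and diet together gave no call for the genes tested in full. Males minus females was 0.22 for Prkab1 (adjusted p = 0.91) and 0.03 for Sirt2 (adjusted p = 0.997) on the log2 scale, by limma. The interaction of diet and sex had adjusted p = 0.96 for both. Of the 4848 symbols, 1 was called for sex and 4 for the interaction. After diet and sex, the SD between libraries was 0.59 for Sirt2 and 0.66 for Prkab1 in log2 units. Of the 200 symbols nearest in level, 24.5% and 29% had a smaller SD, so both were steadier than most symbols at their level. The symbols whose residuals were most like Sirt2 were Slc25a12 (r = 0.70), Siah2 (r = 0.69) and Pole3 (r = 0.67), and those most like Prkab1 were Mapt (r = 0.68), Glrx5 (r = 0.67) and Por (r = 0.67), each over 30 libraries and 4847 symbols.

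No gene of the wider pathway passed either. The 10 lists held 92 other genes, of which 77 were listed and 33 were tested in full, and 0 passed in any of the 8 comparisons. Of their 264 tests 24, or 9.09%, had an unadjusted p under 0.05, against 5.90% of the tests on all symbols, and the smallest adjusted p was 0.47. Tests on the same libraries are not independent, and the shares were not compared by a test. Levels below are FPKM with the SD over the 6 libraries of a diet.

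Of the remaining sirtuins, the nuclear Sirt6 and Sirt7 were tested and 0 passed. Sirt7 had 2.38 ± 2.93 FPKM in Chow (SD, n = 6) and 6.09 ± 3.78 on 10% P, a log2 difference of 1.70 (SE 0.77, adjusted p = 0.79, limma). Of the remaining AMPK subunits, Prkag2 was the most abundant at a mean of 23.2 FPKM, and Prkab2 had 0.950 ± 1.80 FPKM in Chow and 4.30 ± 3.74 on 15% P. Their median log2 difference from Chow was between 0.51 and 0.85 over the 4 diets, against -0.012 to 0.021 for all symbols, and 0 of 2 passed. Prkab2 alone had differences from Chow of 0.60 to 1.62 (SE 0.91 in ChowCR), none of them past the threshold. Prkab1, the other beta subunit, had differences below 0 from the same Chow libraries, and none of these passed. A relation between the 2 beta subunits was not tested.

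Among the kinases upstream, Stk11, which encodes the AMPK kinase LKB1, had a higher mean than in Chow on every other diet. It had 13.2 ± 2.82 FPKM in Chow (SD, n = 6), 16.3 ± 1.67 in ChowCR, and 16.8, 16.3 and 16.2 on 5%, 10% and 15% P. The log2 difference was 0.31 to 0.36 with unadjusted p from 0.0053 to 0.014, and adjusted p from 0.59 to 0.84 by limma. The 4 comparisons share the 6 Chow libraries, and none passed. How many other symbols had a higher mean than in Chow on all 4 diets was not counted. Its partner Cab39 had 42.3 ± 1.43 in Chow and 41.5 ± 8.50 in ChowCR. The kinase gene Camkk1 had 23.1 ± 5.80 and 23.1 ± 7.56, and 0 of the 4 genes tested from this list passed. Of the AMPK substrates, 0 of 3 tested passed, with Mff, a receptor for mitochondrial fission, at 37.7 ± 3.47 in Chow and 42.7 ± 6.79 in ChowCR.

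Among the partners of PGC-1alpha, Tfam, which maintains mitochondrial DNA, had 5.43 ± 0.776 FPKM in Chow and 5.22 ± 0.592 in ChowCR, and 0 of 3 tested passed. Of the interneuron genes known to need PGC-1alpha, Pvalb had 27.9 ± 14.7 in Chow and 20.1 ± 4.42 in ChowCR, and 0 of 2 passed. In NAD metabolism, Nampt, the enzyme of the salvage pathway, had 12.5 ± 4.64 in Chow and 15.0 ± 4.24 in ChowCR, and 0 of 5 passed. Among targets of Foxo, Cat, which breaks down hydrogen peroxide, had 13.7 ± 1.79 and 14.2 ± 2.03, and 0 of 8 passed. Among substrates of the mitochondrial sirtuins, Sdha, a subunit of respiratory complex II, had 114 ± 4.11 and 109 ± 4.84, and 0 of 3 passed. Larger differences of ChowCR from Chow stood in some of the same lists. On the log2 scale Idh2 among these substrates was at 0.82, Gabarapl1 among Foxo targets at -0.92 and Cplx1 among the interneuron genes at -0.89. Their adjusted p was 0.67 to 0.74 by limma.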

How the data were processed

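Hippocampal poly(A) RNA of 30 mice was sequenced after a stranded library preparation, per the labels' protocols. The authors deposited FPKM per transcript, with 46109 rows, and depth is unknown. The submitters' processing notes name the mm10 build, TopHat2 2.0.14, StringTie 1.2.4, DESeq2 1.16.1, featureCounts 1.4.6 and bcl2fastq 2.18.0. The sources used here give neither the role of each nor the strand setting, so reads of antisense genes may be mixed in. Groups follow the sample titles, and sex the labels.

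Rows were matched to the 10 genes by symbol, and identifiers, without version, to GENCODE M21 (all 25 rows found). The test was limma 3.58.1 (R 4.3.3) on log2(FPKM + 0.5) (trend, two-sided, sex as covariate), for features listed in all 30 libraries with a mean of at least 1 FPKM, with Benjamini-Hochberg adjustment over all features and a threshold of 0.05. Of 4447 transcripts tested, 0 belonged to the genes, so symbol sums (4848) carry the tests. A fold change on this scale understates that of low genes. Listing was compared with Fisher's exact test (scipy 1.17.1) over 12774 symbols. Chosen after seeing the data were the fit of listed values alone (at least 2 libraries on every diet, 8001 symbols), the 4 other diets together, and the Sirt2 relation without the library at 0. The genes and lists were chosen with earlier results of these data known. Named are all 10 genes, the 3 symbols most like each tested sum, and up to 4 pathway genes of highest mean per list. Transcripts with a mean under 1 FPKM were named after their values were seen. Procedures were tested on simulated data. The Sirt2 relation with another set of myelin genes is not reported here. Alternatives changed pseudocounts, filters, scaling, covariates and libraries.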

Additional observations from a re-analysis of the deposited data

Results flagged for a closer look

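In 3 of 32 groups of 4 to 6 listed values, 1 library stood far from the rest. The rule flags about 1 in 20 groups when values are normally distributed, which was not checked for these low FPKM sums. Sirt2 in Chow was 2.51 FPKM in replicate 5, and the next value was 1.15. Sirt3 on 10% P was 2.46 FPKM in replicate 2, and the next of the 4 listed values was 0.878. Prkag1 in ChowCR was 11.99 FPKM in replicate 6, and the next of the 4 listed values was 1.58. The cause was not tested for any of them.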

How the results depend on the processing

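No gene passed the threshold under any alternative reported here. The 687 values of counts, listing tests and the Sirt2 relation stayed on the same side of it, and the Sirt2 relation kept its sign. Many of the 687 are counts from the transcript and share tests. Those tests held no gene of the set unless gaps in listing were allowed, so their counts were fixed in advance and show no stability. The listing tests of 6 against 6 allow no p below 0.00216 (Fisher's exact test) before adjustment over 12774 symbols. Their lack of calls was thus nearly fixed as well. Of 310 log2 differences under alternatives other than leaving out a library, 17 changed sign. A pseudocount of 0.1 gave 0.045 for Prkab1 in 10% P against ChowCR. The myelin covariate gave 0.057 for Sirt2 in 15% P against Chow. The Ttr covariate gave 0.16 for Prkab1 in both 5% P and 10% P against ChowCR. Females alone gave 0.49 and 0.35 for Sirt2 in 10% P and 15% P against Chow, and 0.39, 0.40 and, for the trend, 0.048 for Prkab1 in 10% P and 15% P against ChowCR. Males alone gave 0.10 for Prkab1 and -0.14 for Sirt2 in ChowCR against Chow, and -0.097 and 0.044 for Sirt2 in 5% P against Chow and ChowCR. With unlisted values at 0, by either listing minimum, Prkag1 in 5% P against Chow was 0.36 and the Foxo1 trend 0.036.

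Leaving out each library in turn changed the sign of 37 of 1140 log2 differences. Against Chow, Sirt2 ran from -0.28 to 0.14 on 10% P and from -0.17 to 0.17 on 15% P, Prkag1 from -0.61 to 0.049 on 5% P and from -1.04 to 0.19 on 10% P, Sirt3 from -0.15 to 0.34 on 10% P and from -0.45 to 0.39 on 15% P, and Foxo1 from -0.22 to 0.33 on 15% P. Against ChowCR, Prkab1 ran from -0.54 to 0.053 on 5% P and from -0.36 to 0.11 on 10% P, Sirt2 from -0.24 to 0.16, Sirt3 from -0.27 to 0.26 and Foxo1 from -0.12 to 0.063 on 5% P, and Foxo1 from -0.057 to 0.14 on 10% P. The trend ran from -0.040 to 0.0096 for Prkab1 and from -0.095 to 0.014 for Sirt3. The cause was not tested. With a mean of at least 5 FPKM no gene of the set was left to test. The symbols called over all features for ChowCR against Chow numbered 0 to 6 over the settings. No paired analysis was possible because the numbers in the sample titles are not shared between diets. Those of ChowCR ran from 97.3 to 122.3, above the 1.3 to 50.3 of Chow and the 7.3 to 88.3 of the P diets. Anything that follows these numbers cannot be told apart from the ChowCR diet. Low levels and unknown depth limit what the gaps in listing can show.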

Other observations

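Listing was also counted by sex, as values only. Of 15 libraries of each sex, Sirt1 was listed in 11 female and 8 male libraries, Sirt5 in 7 and 7, Prkag1 in 14 and 10, and Ppargc1a in 7 and 9. Chosen after their values were seen, the Foxo targets Gadd45b and Sesn3 had the smallest p among the Foxo targets for ChowCR against Chow. Gadd45b, a stress-response gene, had 9.51 ± 0.549 FPKM in ChowCR and 6.09 ± 1.61 in Chow (SD, n = 6), a log2 difference of 0.64 (SE 0.22, adjusted p = 0.47, limma). Sesn3, which acts upstream of AMPK, had 9.33 ± 1.02 and 11.5 ± 1.09 FPKM, a log2 difference of -0.29 (SE 0.11, adjusted p = 0.60, limma). Neither passed the threshold.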
